A study of Mus musculus with 6 samples.

Results

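Folate and methionine cycle enzymes were described in Ba/F3 cells, an interleukin-3 dependent mouse lymphoid line, that were engineered to express WT or R98S mutant RPL10. The group was chosen by symbol and holds 8 of the 41255 genes listed in the expression table: Mthfd1, Mthfd1l, Mthfd2, Tyms, Fpgs, Slc19a1, Mat2a and Ahcy. A read was found in at least 1 library for 25345 genes, and 11550 genes, with all 8 enzymes among them, passed the expression filter (mean normalized read count of at least 10) and were tested.

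RPL10 is a protein of the large ribosomal subunit, and R98S, a serine in place of the arginine at residue 98, is a recurrent mutation of T-cell acute lymphoblastic leukemia. Polyadenylated mRNA was sequenced from 3 WT clones (28, 29 and 36) and 3 R98S clones (11, 13 and 35), with 1 library per clone. All 6 clones carried a human RPL10 cDNA delivered by a retroviral vector together with a short hairpin RNA against the mouse Rpl10 gene, and all received cycloheximide, which arrests translating ribosomes, at 100 µg/ml for 5 min before lysis. Each clone was a culture grown from 1 cell and picked for strong knock-down, so that p-values below measure the spread between clones of an engineered line.

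Folate carries formyl, methylene and methyl groups at different oxidation states between amino acid, nucleotide and methionine metabolism. In mitochondria the groups are taken from serine and released as formate, and in the cytosol formate is reattached to folate for purine, thymidylate and methionine synthesis. The methionine cycle turns methionine into S-adenosylmethionine, the methyl donor of DNA, RNA and protein methylation, and regenerates it from homocysteine with a methyl group from folate. Proliferating lymphoid cells depend on both cycles, and antifolate drugs used against leukemia act on them.

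The libraries held between 21786776 and 24204991 reads assigned to genes, and 18890 to 19958 genes had a read in a library. Normalized read counts of Rpl10, the target of the hairpin in every clone, were 2637 ± 655 (SD, n = 3) in WT and 2509 ± 580 (SD, n = 3) in R98S clones. With no clone free of the hairpin, these counts do not give the depth of the knock-down. Whether reads of the human RPL10 cDNA entered them was not tested. The cells expressed the B-cell receptor component Cd79a, the interleukin-3 receptor chains Il3ra, Csf2rb and Csf2rb2 and the leukocyte antigen Ptprc, and Csf2rb, Csf2rb2 and Ptprc differed between the groups without overlap (limma adjusted p of 0.0509, 0.0178 and 0.00894). Normalized read counts of Csf2rb lay between 46530 and 60303 in WT and between 67790 and 83429 in R98S clones, those of Csf2rb2 between 39754 and 42756 and between 57287 and 70202, and those of Ptprc between 8869 and 14068 and between 3366 and 5657. Kit and the B-lineage genes Pax5, Vpreb1, Igll1 and Rag1 were at 3 reads or fewer in every library, so that the label of a lymphoid line rested on the former genes. Of other lineages, the T-cell genes Cd3e and Cd4 had at most 3 reads. However, the sum of 4 T-lineage markers, mostly from Cd3d, lay between 10.7 and 22.0 normalized counts in WT and between 45.9 and 91.9 in R98S clones. The sum of the erythroid markers lay between 8.60 and 71.1 in WT and between 0 and 9.19 in R98S clones. Of the macrophage markers, Lyz2 counts were 4.10, 24.7 and 43.0 for WT clones 28, 29 and 36 against 0.938, 0 and 1.85 for R98S clones 11, 13 and 35, while the list as a whole, mostly Cd68, summed to between 164.9 and 267.6 in WT and to between 88.2 and 251.1 in the mutant. The part of these markers in the results below was not tested. The lowest read count of any of the 8 enzymes in a library was 578.

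In the R98S clones the mRNA of Mthfd1l, an enzyme of mitochondrial formate production, fell to 0.759 of its WT level (n = 3 clones a group, 95% interval of the fitted fold 0.646 to 0.897), and that of Fpgs, which retains folate in the cell, rose 1.37-fold (interval 1.07 to 1.75). These 2 of the 8 enzymes passed the limma test at an adjusted p under 0.1, which makes 25% against 23.9% of all genes tested. In WT clones Mthfd2, the partner of Mthfd1l in mitochondria, had a mean normalized count of 7113 against 5156 in R98S clones, and the cytosolic enzyme Mthfd1 had 3936 against 5044, but neither passed the test. In bulk libraries, fewer cells that express a gene and less RNA per cell cannot be told apart. Of the enzymes, 6 had a positive and 2 a negative log2 fold change, with a median of 0.30 against -0.011 over all genes tested. None of the 8 enzymes, called or not, was past 2-fold. Of all called genes 28.0% were, a share that leaves out genes not called. The median absolute log2 fold change of the enzymes was 0.33 against 0.27 over all genes. For 4 enzymes, Mthfd1l, Fpgs, Mat2a and Ahcy, the values of the WT and R98S clones did not overlap, a pattern found in 37.3% of all genes tested. The number of enzymes that passed was 0 without WT clone 28 or without WT clone 29, 1 without R98S clone 11, 4 without R98S clone 13 and 4 with DESeq2.

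**Figure D1:**
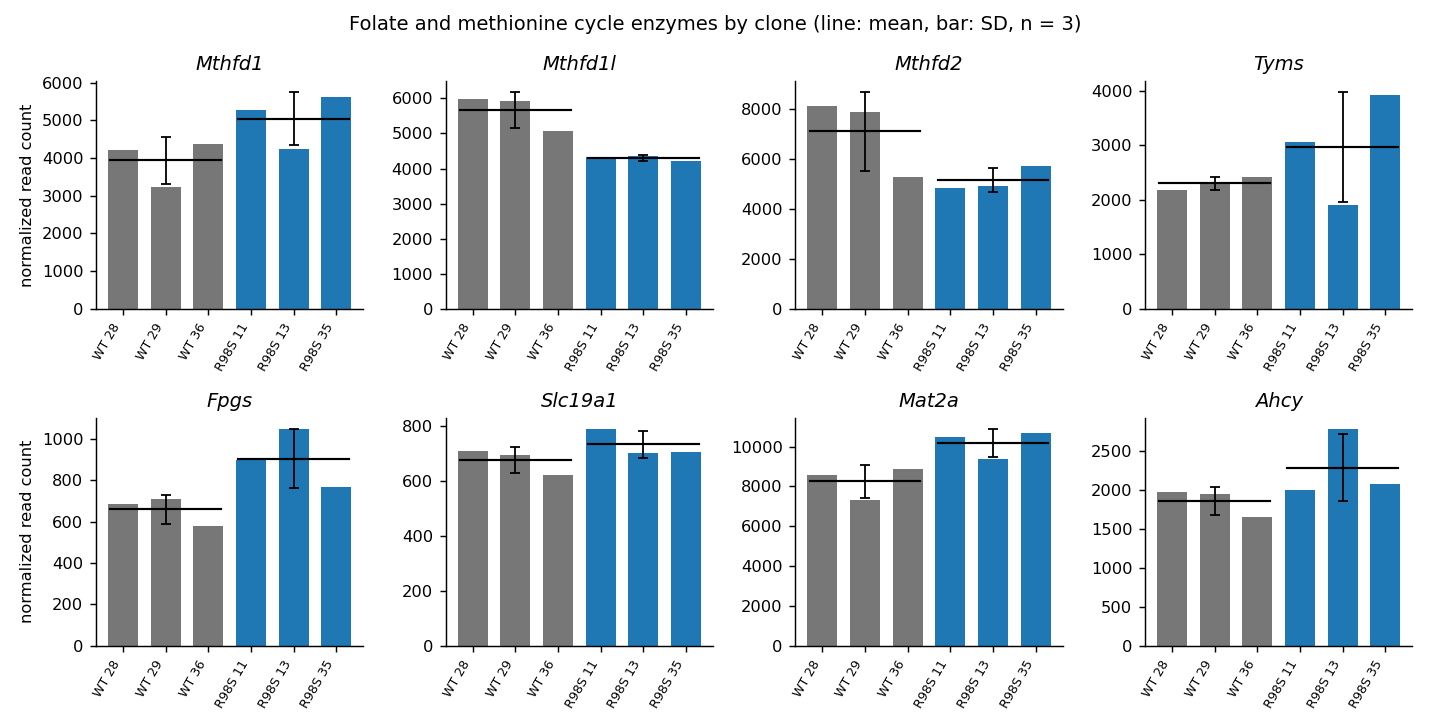
Normalized read counts (y axis, linear from 0, a separate scale per panel) of the 8 enzymes in the WT clones (grey) and the R98S clones (blue). Bars are single clones, lines the group means and error bars the SD over n = 3 clones. Relative to the mean, Mthfd1l is the enzyme with the lowest R98S spread, with values between 4201 and 4357, and Tyms the one in which R98S clones spread most, between 1907 and 3927.

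The sequences around the transcription start are shown for the enzymes that passed the test (Mthfd1l, Fpgs) and for those with which they are set side by side below (Mthfd2, Mthfd1, Mat2a), because regulators of growth and of amino acid supply are known to act at such promoters. Each is a 300-base window of RefSeq (GRCm38.p6), 5′ to 3′ on the strand of the gene, from 250 bases before to 50 bases after the RefSeq start. The windows lie at chr10:3972825-3973124 (plus strand, Mthfd1l), chr6:83317555-83317854 (minus strand, Mthfd2), chr12:76254982-76255281 (plus strand, Mthfd1), chr6:72439507-72439806 (minus strand, Mat2a) and chr2:32694126-32694425 (minus strand, Fpgs). Capitals mark a CCAAT box, read as CCAAT or, on the other strand, ATTGG.
Mthfd1l: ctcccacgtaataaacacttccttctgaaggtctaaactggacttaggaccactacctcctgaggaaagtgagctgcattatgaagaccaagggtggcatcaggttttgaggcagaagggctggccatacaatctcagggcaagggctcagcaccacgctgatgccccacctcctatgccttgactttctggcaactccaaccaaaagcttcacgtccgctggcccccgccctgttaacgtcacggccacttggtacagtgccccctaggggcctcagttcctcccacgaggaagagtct
Mthfd2: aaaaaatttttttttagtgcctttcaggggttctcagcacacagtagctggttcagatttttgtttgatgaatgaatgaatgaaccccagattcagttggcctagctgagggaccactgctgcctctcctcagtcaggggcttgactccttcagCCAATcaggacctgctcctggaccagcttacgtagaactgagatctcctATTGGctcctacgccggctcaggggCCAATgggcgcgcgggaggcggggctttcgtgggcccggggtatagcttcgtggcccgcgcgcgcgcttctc
Mthfd1: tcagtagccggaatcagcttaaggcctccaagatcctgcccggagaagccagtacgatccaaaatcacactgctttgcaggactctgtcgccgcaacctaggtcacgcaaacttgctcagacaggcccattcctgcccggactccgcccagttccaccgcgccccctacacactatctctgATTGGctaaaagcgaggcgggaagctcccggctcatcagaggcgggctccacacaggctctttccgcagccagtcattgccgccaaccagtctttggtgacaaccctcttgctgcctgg
Mat2a: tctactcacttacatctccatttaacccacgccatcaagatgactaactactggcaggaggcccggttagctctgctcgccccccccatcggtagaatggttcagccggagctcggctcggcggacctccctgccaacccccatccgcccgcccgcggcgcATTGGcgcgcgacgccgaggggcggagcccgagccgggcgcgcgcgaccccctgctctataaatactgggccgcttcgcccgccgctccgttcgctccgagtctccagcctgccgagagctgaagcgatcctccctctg
Fpgs: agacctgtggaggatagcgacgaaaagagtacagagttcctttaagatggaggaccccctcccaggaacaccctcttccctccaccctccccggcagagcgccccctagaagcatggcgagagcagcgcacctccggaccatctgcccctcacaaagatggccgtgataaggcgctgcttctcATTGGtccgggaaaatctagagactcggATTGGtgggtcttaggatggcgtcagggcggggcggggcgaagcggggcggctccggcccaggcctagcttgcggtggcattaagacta

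All 8 enzymes had a window, and Slc19a1 had 2. A CCAAT box stood in 5 of these 9 windows, each of a different enzyme, compared with 37.4% of all 32851 windows. Mthfd2 held 3 boxes, first bases at -96, -47 and -22 from the start, and Fpgs held 2, at -67 and -39. Mthfd1 and Mat2a had 1 each, at -69 and -89, and Ahcy had 1 at -237. The window of Mthfd1l held none of the motifs searched. An E-box (CACGTG), found in 7.15% of windows, was present in that of Tyms alone, at -61. The amino acid response element TGATGNAA, where N is any base (3.97% of windows), the E2F motifs TTTCGCGC and TTTGGCGC (0.813%) and the NRF1 motif (0.971%) were searched on both strands and were in no window of the 8 enzymes. No matches overlapped each other. A match is a string of letters in the window, and binding was not measured.

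Mthfd1l and Mthfd2 encode mitochondrial enzymes that act in sequence on folate-bound groups derived from serine. MTHFD2 oxidizes methylene-tetrahydrofolate to the formyl form, and MTHFD1L releases the formyl group as formate. Mthfd1l (chromosome 10, 3973118 to 4167081, plus strand, GRCm38) was measured at 5994, 5935 and 5067 normalized read counts in WT clones 28, 29 and 36, whereas R98S clones 11, 13 and 35 were at 4342, 4357 and 4201. All R98S clones lay below all WT clones, and they were close to each other (SD of 86.0 around a mean of 4300). The difference on the log2 scale was -0.39 ± 0.10 (SE, 95% interval -0.63 to -0.16, limma adjusted p = 0.0400). Without WT clone 28 it was -0.35 with a limma adjusted p of 0.165, and without WT clone 29 it was -0.36 with 0.140. The 30 tested genes nearest to Mthfd1l, which lay within 8.88 Mb, had a median log2 fold change of -0.20, with 5 of them called lower and 1 higher. After the median shift of these neighbors was removed in each library, the log2 fold change of Mthfd1l was -0.27 with a limma adjusted p of 0.148.

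For Mthfd2 (chromosome 6, 83305691 to 83325908, minus strand) the normalized counts were 8141, 7914 and 5284 in WT clones 28, 29 and 36. R98S clones 11, 13 and 35 had 4847, 4910 and 5712. WT clone 36 stood apart from the other 2 WT clones and below R98S clone 35, so the groups overlapped. For the groups the log2 fold change was -0.44 ± 0.17 (SE, interval -0.84 to -0.043), and the limma adjusted p of 0.124 missed the threshold. Leaving out WT clone 36 gave -0.64 with a limma adjusted p of 0.0194, and the DESeq2 test on all clones gave -0.45 with 0.0548. The paralog Mthfd2l was at 1 read or fewer in every library.

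Mthfd1 (chromosome 12, 76255298 to 76319803, plus strand) encodes the cytosolic enzyme that joins formate to tetrahydrofolate and interconverts its formyl and methylene forms. WT clones 28, 29 and 36 had 4208, 3223 and 4377 normalized counts, and the mutant clones 11, 13 and 35 had 5273, 4249 and 5609. R98S clone 13 lay below WT clone 36, whereas R98S clones 11 and 35 were above all WT clones. A log2 fold change of 0.36 ± 0.16 (SE, interval 0.0037 to 0.72) had a limma adjusted p of 0.154. Without R98S clone 13 it was 0.48 with a limma adjusted p of 0.0719, and without WT clone 29 it was 0.22 with 0.409.

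Of Mthfd1, Mthfd1l and Mthfd2 only Mthfd1l was called. Because the estimate of Mthfd1 was positive and those of Mthfd1l and Mthfd2 were negative, their counts were set in ratio within each clone. These pairs were chosen after the values were seen and are given without a test. WT clones 28, 29 and 36 had Mthfd1 to Mthfd1l ratios of 0.702, 0.543 and 0.864, compared with 1.21, 0.975 and 1.34 in R98S clones 11, 13 and 35. Every R98S clone was above every WT clone. For Mthfd1 to Mthfd2 the WT ratios were 0.517, 0.407 and 0.828 and the R98S ratios 1.09, 0.865 and 0.982, again without overlap, although WT clone 36 and R98S clone 13 were near each other. The ratio of the mitochondrial enzymes to each other, Mthfd1l to Mthfd2, was 0.815 ± 0.125 (SD, n = 3) in WT and 0.840 ± 0.0902 (SD, n = 3) in R98S clones and overlapped. Shmt2, the mitochondrial hydroxymethyltransferase that feeds MTHFD2, differed from WT by 0.25 ± 0.13 on the log2 scale (SE, limma adjusted p = 0.224), with the opposite sign to Mthfd2. For Mthfd2 to Shmt2 the WT clones gave ratios of 1.13, 1.13 and 0.929, above the 0.629, 0.684 and 0.655 of the R98S clones.

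**Figure D2:**
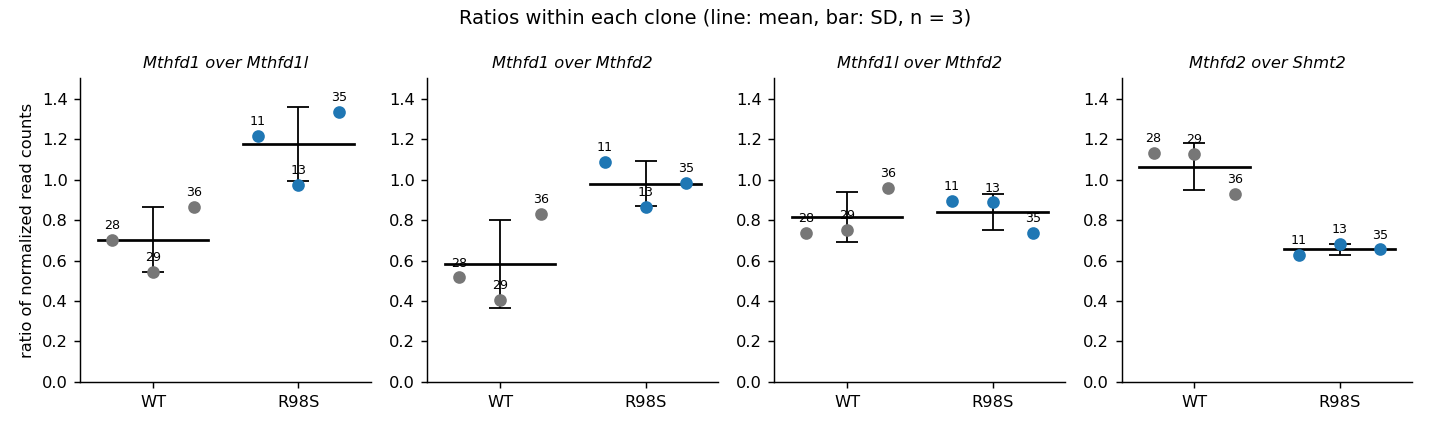
Ratios of normalized read counts between enzymes within each clone (y axis, linear from 0), by group. Points are clones with their number, lines the group means and bars the SD over n = 3 clones. Mthfd1 over Mthfd1l, Mthfd1 over Mthfd2 and Mthfd2 over Shmt2 separate the groups, whereas Mthfd1l over Mthfd2 overlaps (means of 0.815 and 0.840).

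MTHFD2 is known as a target of ATF4, the transcription factor of the amino acid response. A selection of 15 genes known as ATF4 targets was counted, without Mthfd1l and Mthfd2. Of these, 11 were tested, 6 fell and none rose in R98S clones, with a median log2 fold change of -0.70 against -0.011 over all genes. The counts hold for this selection, and targets outside it may differ. Genes called lower made up 13.1% of all genes tested. The transcription factor Atf5 fell from 576.0 ± 247 to 147.7 ± 22.3 normalized counts (SD, n = 3; log2 fold change -1.86, limma adjusted p = 0.0126), 82 of its exon bases lying opposite Nup62, and the stress protein gene Nupr1 from 242.9 ± 146 to 36.2 ± 2.33 (-2.45, limma adjusted p = 0.0200). Eif4ebp1, an inhibitor of translation initiation, Ddit3, a stress-response transcription factor, Trib3, a pseudokinase that feeds back on ATF4, and the cystine transporter gene Slc7a11 fell as well, with log2 fold changes of -0.70, -1.14, -1.35 and -1.77 (limma adjusted p between 0.0418 and 0.0755). For Trib3 and Slc7a11 the groups overlapped, R98S clone 13 (980.8 and 359.3 normalized counts) lying above WT clone 36 (827.6 and 312.2), and both missed the threshold without WT clone 28, WT clone 29, R98S clone 11 or R98S clone 35, as did Eif4ebp1. Ddit3 missed it without R98S clone 11 or R98S clone 35, and without WT clone 29 its log2 fold change was -0.73. Asns, the asparagine synthetase, was not called (-0.14, limma adjusted p = 0.671). The count of 6 ranged from 2 to 9 when single clones were left out. Without R98S clone 11 or without R98S clone 35 it was 2, and without WT clone 28 or WT clone 29 it was 3.

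By clone, the median of the ATF4 targets, each centered on its mean over the 6 clones on the log2(normalized count + 1) scale, was 0.53, 0.94 and -0.13 in WT clones 28, 29 and 36. It was -0.39, -0.11 and -0.68 in R98S clones 11, 13 and 35. WT clone 36 was thus below the other WT clones for this list, as it was for Mthfd2 (0.44, 0.40 and -0.18 in WT) and for Mthfd1l (0.28, 0.27 and 0.040). Among R98S clones the order differed, since clone 35 had the lowest list median but the highest centered Mthfd2 value, -0.069. The part of the ATF4 targets in the difference of the mitochondrial enzymes was not tested.

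**Figure D3:**
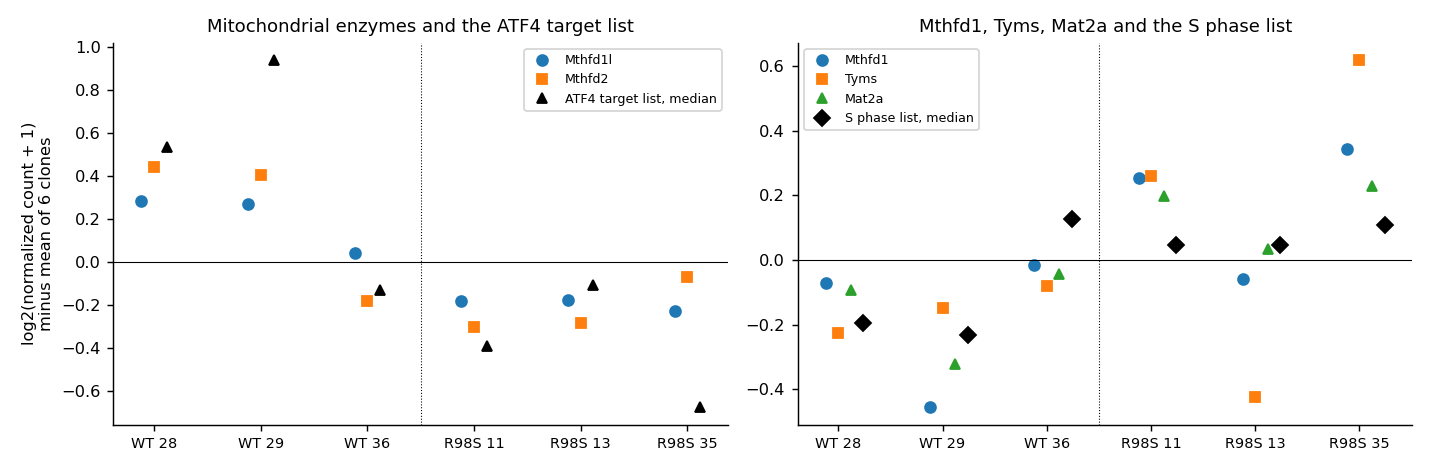
Centered levels per clone on the log2(normalized count + 1) scale (y axis), that is the value minus the mean of the 6 clones, for Mthfd1l, Mthfd2 and the median of the ATF4 targets (left) and for Mthfd1, Tyms, Mat2a and the median of the S phase genes (right). Each symbol is 1 gene or list in 1 clone. In WT clone 36 Mthfd2 (-0.18) and the ATF4 list (-0.13) lie below 0, and in R98S clone 13 Tyms (-0.42) lies below every WT clone.

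Most other genes of folate interconversion were not called. Of 10 tested genes of this list 1 rose, 1 fell and 8 were not called, with a median log2 fold change of 0.10 against -0.011 over all genes. Genes called higher made up 10.7% and genes called lower 13.1% of all genes tested. The gene that rose was Shmt1, the cytosolic serine hydroxymethyltransferase, from 1760 ± 114 to 2436 ± 256 normalized counts (SD, n = 3; log2 fold change 0.47 ± 0.12 SE, limma adjusted p = 0.0333). Every R98S clone exceeded every WT clone for it, without WT clone 28 the limma adjusted p was 0.140, and 184 of its exon bases lie opposite Smcr8. The gene that fell was Mthfd1l. Mtfmt, which formylates the initiator methionyl-tRNA of mitochondria, had a log2 fold change of 0.0027, Mthfs of -0.26 and Aldh1l2 of 0.59, and none was called. For Aldh1l2, 1056 exon bases lie opposite D10Wsu102e. Mthfd2l, Aldh1l1 and Ftcd were too low to be tested. The number of called genes of this list was 0 without WT clone 28, 1 without WT clone 29 and 5 without WT clone 36.

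Folate enters cells through the reduced folate carrier SLC19A1, the proton-coupled transporter SLC46A1 and the folate receptors, and is held there by FPGS, which adds glutamates that GGH removes. Fpgs lies on the minus strand of chromosome 2 (32682609 to 32704145). WT clones 28, 29 and 36 showed 688.1, 712.5 and 578.4 normalized Fpgs counts, and R98S clones 11, 13 and 35 showed 897.9, 1051 and 767.0. All R98S clones were above all WT clones, R98S clone 13 being the highest. Its log2 fold change of 0.45 ± 0.16 (SE, interval 0.094 to 0.81) had a limma adjusted p of 0.0878, close to the threshold. It missed the threshold in 5 of the 6 fits that left out a clone, those without WT clone 28, 29 or 36 and without R98S clone 11 or 13, with log2 fold changes between 0.34 and 0.51 and limma adjusted p between 0.143 and 0.187. Fpgs shares 61 exon bases with Eng on the opposite strand, whose mean normalized count was 78.8, and whether counting used the strand is not stated. Ggh, its counterpart, was not called (-0.019, limma adjusted p = 0.951), and its sign turned with the scaling.

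Slc19a1 (chromosome 10, 77032241 to 77061002, plus strand) was at 710.7, 696.4 and 621.5 normalized counts in the WT group, next to 791.9, 703.2 and 706.8 in the R98S group. The groups overlapped, and R98S clone 11 alone was above all WT clones. The estimate of 0.12 ± 0.12 on the log2 scale (SE, limma adjusted p = 0.546) had an interval from -0.16 to 0.40, which includes 0. It was 0.059 without WT clone 36, 0.063 without R98S clone 11 and 0.24 with the regional shift removed, and was not called in any of these fits. Ratios of Fpgs to Slc19a1 were 0.968, 1.02 and 0.931 for WT and 1.13, 1.49 and 1.09 for R98S, without overlap, a pair chosen after its values were seen.

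Both folate receptor genes rose from low levels. Folr1 counts were 75.8, 80.6 and 23.0 for WT against 251.4, 292.9 and 274.8 for R98S (log2 fold change 2.36 ± 0.44 SE, limma adjusted p = 0.0133). WT clone 36 was the lowest, and all R98S clones were far above the WT clones. Folr2 counts were 8.19, 4.30 and 9.01 for WT against 27.2, 18.4 and 27.8 for R98S (1.67 ± 0.42 SE, limma adjusted p = 0.0333). The groups did not overlap for Folr2 either, but 975 of its exon bases lie opposite the antisense gene Gm10602, and its limma adjusted p was 0.110 without R98S clone 11 and missed the threshold narrowly without R98S clone 35. Of the 7 uptake and retention genes 3 rose and none fell, against 10.7% called higher and 13.1% called lower among all genes tested, and the median log2 fold change was 0.45 against -0.011. Without R98S clone 11 the count was 1. Slc46a1 (21.0 ± 1.36 in WT and 32.7 ± 6.06 in R98S clones, limma adjusted p = 0.209) and the mitochondrial folate carrier gene Slc25a32 (0.11, limma adjusted p = 0.580) were not called.

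Tyms (chromosome 5, 30058202 to 30073617, minus strand) encodes thymidylate synthase, which takes a methylene group from folate to make the DNA precursor dTMP and is induced at the start of S phase. Tyms was counted at 2186, 2310 and 2420 in WT clones 28, 29 and 36, compared with 3061, 1907 and 3927 in R98S clones 11, 13 and 35. The WT clones were close together, whereas R98S clone 35 was the highest and R98S clone 13 the lowest of all 6. The coefficient of variation was 5.07% in WT and 34.2% in R98S clones. With this spread the log2 fold change was 0.30 ± 0.23 (SE, interval -0.23 to 0.84, limma adjusted p = 0.412). Leaving out R98S clone 13 gave 0.59 with a limma adjusted p of 0.0301, and leaving out R98S clone 35 gave 0.069 with 0.850.

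Among the 8 genes of thymidylate synthesis, Shmt1 was the gene that rose and none fell, which makes 12.5% called against 23.9% of all genes tested, with a median log2 fold change of 0.20 against -0.011. The salvage kinase gene Tk1 had 1819 ± 407 normalized counts in WT and 1716 ± 405 in R98S clones (SD, n = 3), and Dut, which removes dUTP, had 3269 ± 351 and 2879 ± 266. Neither was called. The count of 1 was 0 without WT clone 28, and 2 without WT clone 36, without R98S clone 13 or with the regional shift removed.

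Of 15 S phase genes 3 were called higher, or 20% against 10.7% of all genes tested, and none was called lower. The median log2 fold change was 0.22 against -0.011, with 11 genes positive and 4 negative. Among the negative ones, the ribonucleotide reductase gene Rrm2 was at -0.53 without overlap between the groups, and was not called (limma adjusted p = 0.114). The replicative helicase genes Mcm3 and Mcm6 had log2 fold changes of 0.38 and 0.49 (limma adjusted p of 0.0513 and 0.0431), and the cyclin gene Ccne2 of 0.76 (limma adjusted p = 0.0968). For Ccne2, whose WT and R98S clones overlapped, 609 exon bases lie opposite Ints8. With the regional shift removed Mcm3 was at 0.15 (limma adjusted p = 0.415) and Ccne2 at 0.49 (limma adjusted p = 0.216), so that neither was called, and Mcm6 was at 0.32 (limma adjusted p = 0.0601), although the list then held 5 called genes. The number of called genes was 0 without WT clone 28 or R98S clone 11, 1 without WT clone 29 and 7 without WT clone 36. By clone, WT clones 28, 29 and 36 had centered list medians of -0.20, -0.23 and 0.13, and R98S clones 11, 13 and 35 had 0.046, 0.048 and 0.11. WT clone 36 thus had the highest S phase median of all 6 clones, whereas R98S clone 13, which had the lowest Tyms level, was not low for the list. The part of the S phase genes in the values of the 8 enzymes was not tested.

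In the methionine cycle, Mat2a (chromosome 6, 72432799 to 72439558, minus strand) encodes the catalytic subunit of the methionine adenosyltransferase of dividing cells, which makes S-adenosylmethionine. Normalized counts of Mat2a were 8573, 7311 and 8864 for WT clones 28, 29 and 36 against 10482, 9356 and 10704 for R98S clones 11, 13 and 35. No R98S clone overlapped with the WT clones. An estimate of 0.31 ± 0.11 on the log2 scale (SE, interval 0.042 to 0.57) had a limma adjusted p of 0.110, just above the threshold. Without R98S clone 13 it was 0.37 with a limma adjusted p of 0.0712, with the upper quartile scaling 0.35 with 0.0851, with DESeq2 0.31 with 0.0669, and with the regional shift removed 0.40 with 0.0403. Mat2a shares 508 exon bases with Particl, a gene on the opposite strand. Mat2b, the regulatory subunit gene, was not called (-0.13 ± 0.13 SE, limma adjusted p = 0.515).

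Ahcy (chromosome 2, 155059310 to 155074497, minus strand) encodes the hydrolase that removes S-adenosylhomocysteine, the product that inhibits methyltransferases. WT clones 28, 29 and 36 gave 1980, 1945 and 1649 normalized Ahcy counts, and R98S clones 11, 13 and 35 gave 2009, 2793 and 2074. R98S clone 13 was well above the rest, and R98S clone 11 exceeded WT clone 28 by a small margin. The log2 fold change was 0.29 ± 0.15 (SE, interval -0.057 to 0.64, limma adjusted p = 0.227), and without R98S clone 13 it was 0.14 with a limma adjusted p of 0.442. Under no alternative was Ahcy called. Ahcyl1, a relative of Ahcy that is known as a binding partner of the inositol trisphosphate receptor, fell from 6892 ± 335 to 4517 ± 601 normalized counts (SD, n = 3; -0.62 ± 0.12 SE, limma adjusted p = 0.0164). With the regional shift removed its log2 fold change was -0.27 with a limma adjusted p of 0.0569. Ahcyl2 was not called (0.10, limma adjusted p = 0.654).

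The enzymes that return homocysteine to methionine rose. Mtr, the cobalamin-dependent methionine synthase gene, was at 1045, 1057 and 1056 for WT against 1465, 1308 and 1437 for R98S (log2 fold change 0.41 ± 0.10 SE, limma adjusted p = 0.0348). Mtrr, which reactivates methionine synthase, was at 428.0, 430.9 and 504.4 for WT against 627.7, 558.3 and 872.4 for R98S (0.57 ± 0.19 SE, limma adjusted p = 0.0742). Every R98S clone lay above every WT clone for both genes. The limma adjusted p of Mtr was 0.138 without WT clone 28, 0.109 without WT clone 29 and 0.102 without R98S clone 11, and that of Mtrr lay between 0.135 and 0.205 without WT clone 28, WT clone 29, R98S clone 11 or R98S clone 35. With the regional shift removed the log2 fold change of Mtr was 0.76 (limma adjusted p = 0.00362). Of the 7 tested genes of the methionine cycle and transsulfuration 2 rose and 1, Ahcyl1, fell, or 42.9% against 23.9% of all genes tested, with a median log2 fold change of 0.29 against -0.011. The count of 3 was 1 without WT clone 28, WT clone 29 or R98S clone 11. Cbs and Cth, the enzymes that divert homocysteine to cysteine, had at most 7 reads in a library and were not tested, and Mat1a, Bhmt, Bhmt2 and Gnmt, known from liver, were also too low.

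**Figure D4:**
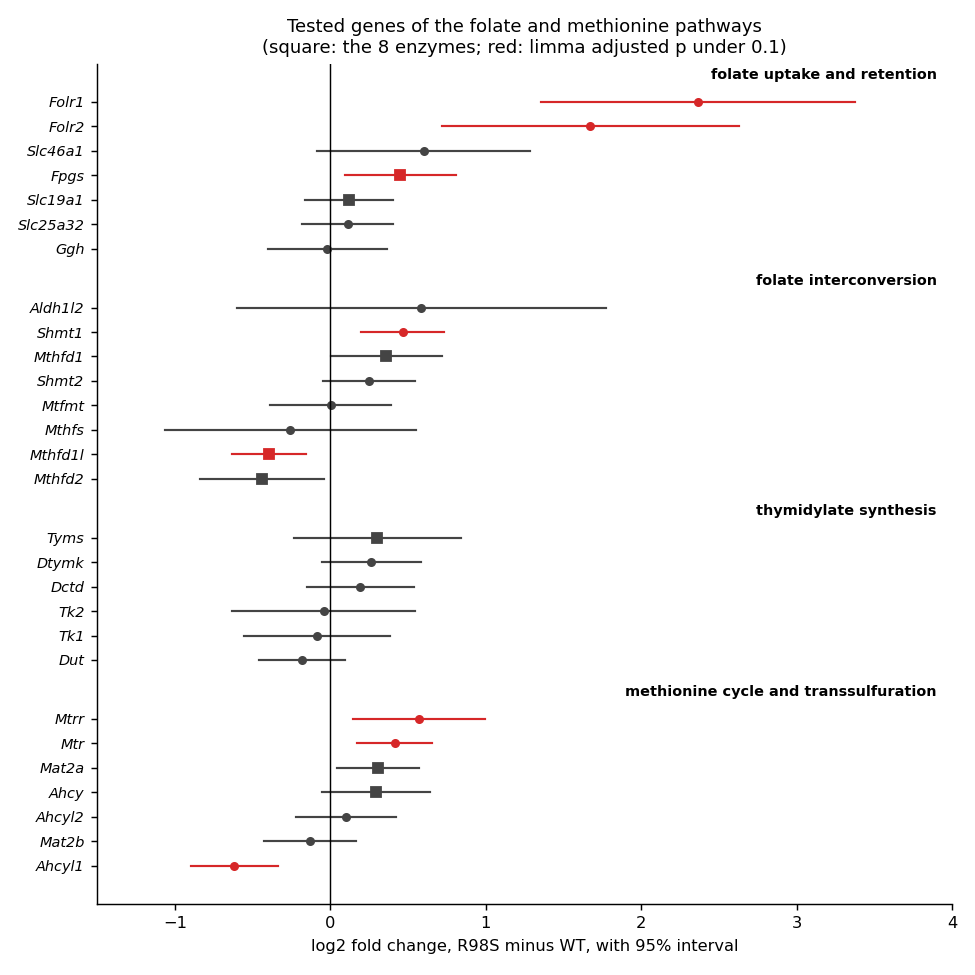
Log2 fold change, R98S minus WT, on the log2(normalized count + 1) scale (x axis) with its 95% interval from limma for tested genes of the 4 folate and methionine lists, each gene drawn once. Squares are the 8 enzymes, circles other genes, and red marks a limma adjusted p under 0.1 (3 WT and 3 R98S clones). Fpgs and Mthfd1l are the squares in red, Folr1 (2.36) and Folr2 (1.67) lie farthest to the right, and Ahcyl1 (-0.62) farthest to the left.

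Levels of different genes were compared as normalized counts per kilobase of exon. In WT clones this level was 2040 ± 455 (SD, n = 3) for Mthfd2, 1839 ± 184 for Mat2a, 1277 ± 117 for Mthfd1l, 886.1 ± 140 for Mthfd1, 662.5 ± 64.8 for Ahcy, 378.6 ± 19.2 for Tyms, 173.5 ± 18.8 for Fpgs and 145.6 ± 10.3 for Slc19a1. The spreads of the neighbors Mthfd2 and Mat2a overlapped. In R98S clones the level per kilobase of Mat2a was 2269 ± 161, that of Mthfd2 1479 ± 138 and that of Mthfd1 1135 ± 160, followed by Mthfd1l with 969.6 ± 19.4. Thus Mat2a stood above Mthfd2 and Mthfd1 above Mthfd1l in the group means of the R98S clones, the reverse of the WT group means. The remaining 4 enzymes kept the order of the WT group means. Single clones differed from their group, as Mat2a was above Mthfd2 in WT clone 36 too, and Mthfd1 was below Mthfd1l in R98S clone 13. Exon lengths were the union of annotated exons, so that unused exons lower these levels.

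The genes whose values over the 6 libraries were most like those of an enzyme were picked by Pearson's r of log2(normalized count + 1) among all tested genes. For Mthfd1l these were Zfp866 (r = 0.996) and Rsrp1 (r = 0.995), and for Mthfd2 the genes 4931406P16Rik and Nudt16l1 (r = 0.995 each). The genes most like Mthfd1 were Fam173b (r = 0.998) and Smek1 (r = 0.993), and those most like Mat2a were Zc3h8 (r = 0.993) and Dnmt3a (r = 0.992). Vcan (r = 0.996) and Ddx23 (r = 0.992) came first for Tyms, and Mrpl22 (r = 0.998) and Il15ra (r = 0.994) for Fpgs. Cops8 (r = 0.994) and Gm13443 (r = 0.988) were nearest to Slc19a1, and Psmb6 (r = 0.994) and Romo1 (r = 0.992) to Ahcy. No gene was near to more than 1 enzyme by this rule. With 6 libraries and 11550 genes, values of this size describe these libraries and carry no test.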

How the data were processed

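The 6 libraries were made from polyadenylated RNA with a strand-specific kit, 1 per clone, and clones were grouped as WT or R98S from their labels. The authors removed ribosomal and transfer RNA reads, aligned the rest to the mouse genome (GRCm38/mm10) with TopHat, kept alignments with a mapping quality of at least 10 and counted reads per gene, and Bowtie2, SAMtools, HTSeq and DESeq2 are named in the submitters' processing notes. The strand setting of the counting is not given in the sources used here. What was deposited is a signal, each gene's read count over the DESeq2 size factor of its library. In every library 100% of them were whole multiples, within 0.01 reads, of the value of 1 read, so the reads were recovered, including in WT clone 36, whose step was close to 1. Depth was between 21786776 and 24204991 reads, and the enzymes had 578 reads or more in every library. The spread between clones and counting error were not separated.

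Differences were tested with limma 3.58.1 (R 4.3.3; two-sided, intensity trend, 4 residual degrees of freedom before moderation) on log2(normalized count + 1) for genes with a mean of at least 10, with Benjamini-Hochberg adjustment over 11550 genes and a threshold of 0.1, the false discovery rate of the study. Fold changes are on this scale, which understates those of low genes. Intervals are 95% intervals of the fit. On the recovered reads, edgeR 4.0.16 (quasi-likelihood, TMM) called 2746 genes and DESeq2 1.42.0 (Wald) 3105, against 2755 with limma. The scripts were tested on simulated data. Gene positions and exon lengths came from GENCODE vM21 on GRCm38, where 36776 of 41255 symbols had 1 position.

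The enzymes and gene lists were chosen with earlier results of these data known, so lists are described by counts and medians beside those of all genes. Named are the 8 enzymes, a fixed set of folate and methionine genes, every list gene past the threshold, and for each enzyme the 2 genes with the highest Pearson's r over the 6 libraries. Of genes outside this rule, Rpl10, marker genes, genes too low to be tested and genes that overlap a named gene are mentioned. So are the not called genes Tk1, Dut, Rrm2 and Asns and, in the closing section, Odc1, Amd1, Amd2, Sms and Mri1. Some genes of the lists are counted but not reported here by name. Alternatives were pseudocounts of 0.5 and 5, no filter or one at a mean of 50, libraries scaled by total or by upper quartile, no trend, an adjusted p threshold of 0.05, edgeR, DESeq2 and leaving out each clone. Subtracting from each gene, library by library, the median deviation of its 30 closest tested genes (regional shift removed) was chosen after seeing the data.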

Additional observations from a re-analysis of the deposited data

How the results depend on the processing

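With 3 clones a group, Mthfd1l and Fpgs each lost their call in some fits that left out a clone. Such fits also hold fewer libraries, so the weight of a clone and the loss of power cannot be told apart. Depth as a limit was not tested, and the lowest read count of an enzyme in a library was 578. Of 136 comparisons of an enzyme with its value under an alternative, 116 kept direction and side of the threshold, 12 lost the call, 8 gained it and 0 reversed. For the 28 other named genes these were 404, 55, 4 and 8 of 471. The cause was not tested. No paired analysis was possible because no clone number occurs in both groups. No alternative scaling moved the median of all genes by over 0.1. Called enzymes numbered 1 without a filter, without the trend, at a threshold of 0.05 and with the regional shift removed, 4 with DESeq2, and 0 to 4 when a clone was left out. The enzymes' log2 fold changes ranged over the clones left out from 0.22 to 0.48 for Mthfd1, -0.47 to -0.35 for Mthfd1l, -0.64 to -0.33 for Mthfd2, 0.069 to 0.59 for Tyms, 0.34 to 0.56 for Fpgs, 0.059 to 0.16 for Slc19a1, 0.22 to 0.37 for Mat2a and 0.14 to 0.38 for Ahcy. Fpgs was not called without a filter or the trend (0.45, limma adjusted p of 0.135 and 0.120), at 0.05 (0.45) or with the regional shift removed (0.41, 0.101), which also ended the call of Mthfd1l (-0.27). Mthfd2 (-0.45) and Mat2a (0.31) were called with DESeq2, and Mat2a with upper quartile scaling (0.35) and the regional shift removed (0.40). Genes called in all numbered 1722 at 0.05 and 1327 to 3219 when a clone was left out. Leaving out a clone gave 1 to 2 called genes for uptake and retention, 0 to 5 for interconversion, 0 to 2 for thymidylate synthesis, 1 to 4 for the methionine cycle, 1 to 3 for salvage and polyamines, 0 to 7 for S phase and 2 to 9 for ATF4 targets. Thymidylate synthesis had 2 with the regional shift removed, salvage 1 without a filter, without the trend and at 0.05, S phase 1 at 0.05 and 5 with DESeq2 or the regional shift removed, and ATF4 targets 3 at 0.05. Ggh (-0.13 to 0.12 over the clones left out) reversed with scaling to the same total (0.0011) and upper quartile (0.021), without WT clone 36 (0.12) and without R98S clone 13 (0.084), and Mtfmt (-0.079 to 0.16) without WT clone 29 (-0.043), WT clone 36 (-0.012), R98S clone 11 (-0.079) and R98S clone 35 (-0.075), always within their errors.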

Other observations

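Methionine salvage, which recovers methionine from the methylthioadenosine left over by polyamine synthesis, held the gene with the largest fall of the folate and methionine lists. Mtap, the phosphorylase that opens this route, was counted at 20377, 27928 and 20926 in WT clones 28, 29 and 36, compared with 12314, 10798 and 13086 in R98S clones 11, 13 and 35. The groups did not overlap, and the level fell to 0.523 of that in WT clones (log2 fold change -0.92 ± 0.15 SE, limma adjusted p = 0.00805). It remained past the threshold under all 17 alternatives, with log2 fold changes from -1.06 to -0.78. Srm, the spermidine synthase gene, rose from 2746 ± 194 to 3523 ± 449 (SD, n = 3; 0.35 ± 0.12 SE, limma adjusted p = 0.0878), without overlap between the groups. Of the 10 genes of salvage and polyamine synthesis 1 rose and 1 fell, or 20% called against 23.9% of all genes tested, and the median log2 fold change was -0.026 against -0.011. Without WT clone 28, WT clone 29, R98S clone 11 or R98S clone 35 the count of 2 was 1. Srm missed the threshold in 5 of the 6 fits that left out a clone, all but that without R98S clone 13 (limma adjusted p between 0.154 and 0.228), and also without the filter (0.157) and without the trend (0.142).

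Odc1, the ornithine decarboxylase gene that starts polyamine synthesis, was at 6728, 4853 and 7545 for WT against 8021, 5952 and 7473 for R98S and was not called (limma adjusted p = 0.541). The S-adenosylmethionine decarboxylase genes Amd1 (1089 ± 121 and 1068 ± 188, SD, n = 3) and Amd2 (16.4 ± 5.21 and 8.64 ± 3.35) were not called, and how reads of these close copies were divided is uncertain. Sms, the spermine synthase gene, had 4330 ± 494 in WT and 3663 ± 56.8 in R98S clones (limma adjusted p = 0.180), and Mri1, which acts after Mtap in salvage, had 685.6 ± 28.8 and 533.7 ± 138 (limma adjusted p = 0.192).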
